A study of Mus musculus with 9 samples.

Results

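Nuclear hormone receptors are transcription factors that carry a DNA-binding domain and, in most members, a pocket for a small fat-soluble ligand. Steroid receptors bind hormone and act on DNA as pairs of like molecules, whereas the receptors for thyroid hormone, retinoic acid, vitamin D and several lipids act as partners of the retinoid X receptors. Orphan members have no established natural ligand, and many of them are controlled mainly through how much of the receptor is made. In skin, retinoic acid, vitamin D, thyroid hormone and glucocorticoids are known to act on hair follicle cycling, on pigment cells and on the dermis. The genes described here are 46 members of this superfamily, taken from a list of gene symbols, and all 46 were among the 23361 genes of the deposited table.

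Poly(A) RNA was sequenced, with its strand kept, from mouse skin cells collected by flow cytometry. Their label is melanocyte stem cells, the reserve from which the pigment cells of hair are renewed. There were 3 groups of 3 libraries, labelled UVB, Active and Quiescent, and UVB names ultraviolet B irradiation, a band of sunlight that burns skin. All mice were 10 weeks old and carried the same genotype, labelled TBPT, which the labels do not spell out. One treatment entry, naming both hair removal by a depilating chemical and UVB, was given to every library alike, so the labels do not say which group was depilated. The labels do not say that the libraries of a group came from separate animals either, so the p-values speak of the spread between libraries, which may be technical.

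Library totals ran from 21045070 to 35131778 fragments. The libraries did not carry the markers of their labelled cell type alike. Summed over 10 melanocyte lineage markers, levels ran from 860 to 1044 CPM (fragment counts scaled to the library total times its TMM factor, which allows for a few genes filling a library) in UVB, from 7789 to 12670 CPM in Active and from 74.5 to 121.5 CPM in Quiescent, and no marker was at 0 in all libraries of a group. Summed over 10 dermal fibroblast markers, they ran from 22130 to 34900 CPM in UVB, from 4843 to 6155 CPM in Active and from 336500 to 455400 CPM in Quiescent. The label of the Quiescent libraries therefore went against their markers. In UVB libraries the fibroblast sum also stood above the melanocyte sum, and in Active libraries it stood below. "Quiescent" and "UVB" are used below as names of groups and not of a cell type. The X-inactivation transcript Xist had 23353 to 30356 fragments in UVB libraries, 5 to 12 in Active and 4 to 12 in Quiescent. Summed over 4 Y-linked genes, the UVB libraries had 0 to 2 fragments, the Active libraries 4106 to 5253 and the Quiescent libraries 4155 to 5591, so UVB treatment and sex cannot be told apart in any comparison with UVB. In such bulk RNA, fewer cells of a type and less RNA per cell cannot be told apart.

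Of the 46 receptor genes, 34 had enough fragments to be tested and 12 did not. Active against Quiescent, which asks how the libraries labelled active differ from those labelled quiescent, gave 8 receptor genes higher and 14 lower (22 of 34) at an adjusted p under 0.05 (edgeR's quasi-likelihood test, Benjamini-Hochberg over 15078 genes), and 12 that did not pass. Of all genes tested in that comparison 58.3% passed, 29.1% higher and 29.2% lower. UVB against Quiescent gave 6 receptor genes higher, 12 lower and 16 that did not pass, where 49.0% of all genes passed, 25.8% higher and 23.2% lower. UVB against Active gave 7 receptor genes higher, 2 lower and 25 that did not pass, where 24.0% of all genes passed, 14.8% higher and 9.19% lower. The shares of receptor genes that passed were close to these backgrounds, so the number of calls is not a result about receptors. In UVB against Active, 4 receptor genes were higher without UVB replicate 3 or Active replicate 2 and 3 without Active replicate 1, and 1 was lower without UVB replicate 2 or Active replicate 1 or 2. The libraries of the groups compared did not overlap for 22 of 34 receptor genes in Active against Quiescent, 19 in UVB against Quiescent and 16 in UVB against Active, beside 66.2%, 57.6% and 46.7% of all genes. These 3 comparisons share libraries and are not independent of each other. Scaling by library totals alone, in place of these TMM-scaled totals, shifted the median log2 fold change over all tested genes. It was then 0.742 in UVB against Quiescent and 0.757 in Active against Quiescent, beside 0.021 and 0.007 with TMM factors. With library totals, 16 receptor genes were higher and 5 lower in UVB against Quiescent, and 16 were higher and 8 lower in Active against Quiescent. Of all 15078 genes tested, 8746 were then higher and 1246 lower in the first comparison, and 8651 and 2206 in the second. Esrra, Rxra, Rxrb, Ppard, Nr2c1, Nr2c2 and Nr6a1 were among the receptor genes then higher in both, by 0.513 to 1.28 on the log2 scale. Values below are relative to the TMM scaling.

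The changes of the receptor genes ran in both directions. Their median size of log2 fold change was 0.42 in UVB against Active, 0.91 in UVB against Quiescent and 1.04 in Active against Quiescent, beside 0.354, 0.591 and 0.727 over all genes tested. Pgr, Esr1, Nr3c1, Thrb, Nr1h3 and Rora stood in the order Quiescent over UVB over Active with no library of a group reaching into another group, which held for 6 of 34 receptor genes and for 7.91% of all genes tested. That is also the order of the summed fibroblast markers and of 10 endothelial markers, whose sums were 215 to 349 CPM in UVB, 29 to 35.6 CPM in Active and 411 to 591 CPM in Quiescent. All 10 endothelial markers were higher in UVB than in Active and lower in Active than in Quiescent, and 5 were lower in UVB than in Quiescent. The part of either cell type in these levels was not tested. Nr2f6 alone stood in the order of the summed melanocyte markers, Active over UVB over Quiescent, which 6.72% of all genes did. Rara and Nr2f1 stood in the order UVB over Active over Quiescent, found for 1.8% of all genes, and Rorb in the order Quiescent over Active over UVB, found for 1.95%.

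**Figure D1:**
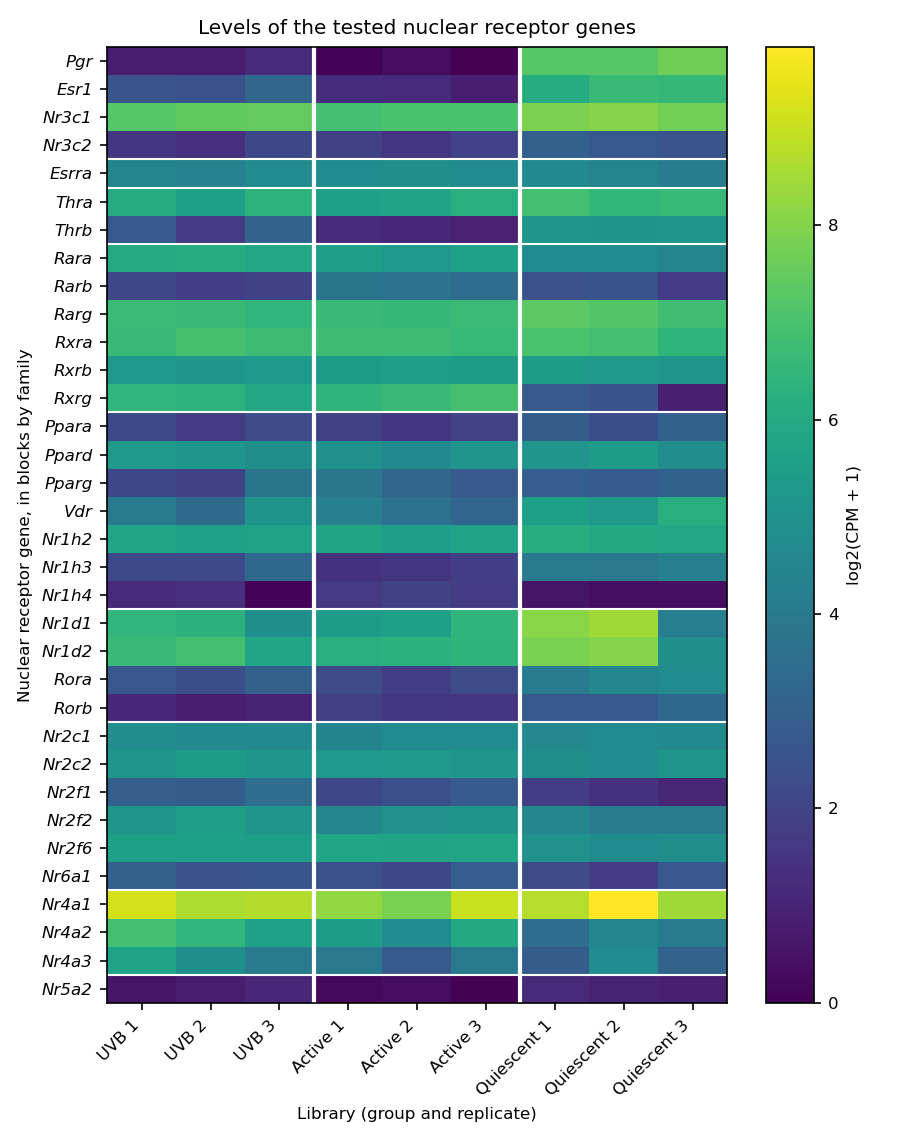
Levels of the 34 tested nuclear receptor genes as log2(CPM + 1), with a column for each of the 9 libraries and a row for each gene, in blocks by family. Within their rows, Pgr, Esr1, Thrb and Rora are brightest in the Quiescent columns and darkest in the Active ones. Rxrg is darker in the Quiescent columns than in the others, and Nr1d1 and Nr1d2 are darker in Quiescent replicate 3 than in replicates 1 and 2.

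Between genes, levels were compared per transcript length, as the authors' FPKM (fragments scaled to transcript length and library total). Nr4a1 led the family in every group, with a mean of 193 FPKM in UVB, 146 in Active and 237 in Quiescent, and its lowest library stood above the highest library of the next gene each time. In UVB libraries Rxrg followed at 38.8 FPKM and Rarg at 35.6 FPKM, and their ranges overlapped. In Active libraries Rxrg at 51.7 FPKM stood clear of Rarg at 36.3 FPKM, which stood clear of Nr1h2 at 26.8 FPKM. In Quiescent libraries Nr1d1 at 84.3 FPKM, Rarg at 52.3 and Thra at 47.1 came next with overlapping ranges, Pgr was 8th at 24.6 FPKM and Esr1 10th at 20.3 FPKM, whereas Rxrg was 26th at 1.97 FPKM. Nr4a1 and Rarg thus held the 1st and 3rd rank in every group, while Rxrg was 2nd in UVB and Active and Nr1d1 in Quiescent.

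**Figure D2:**
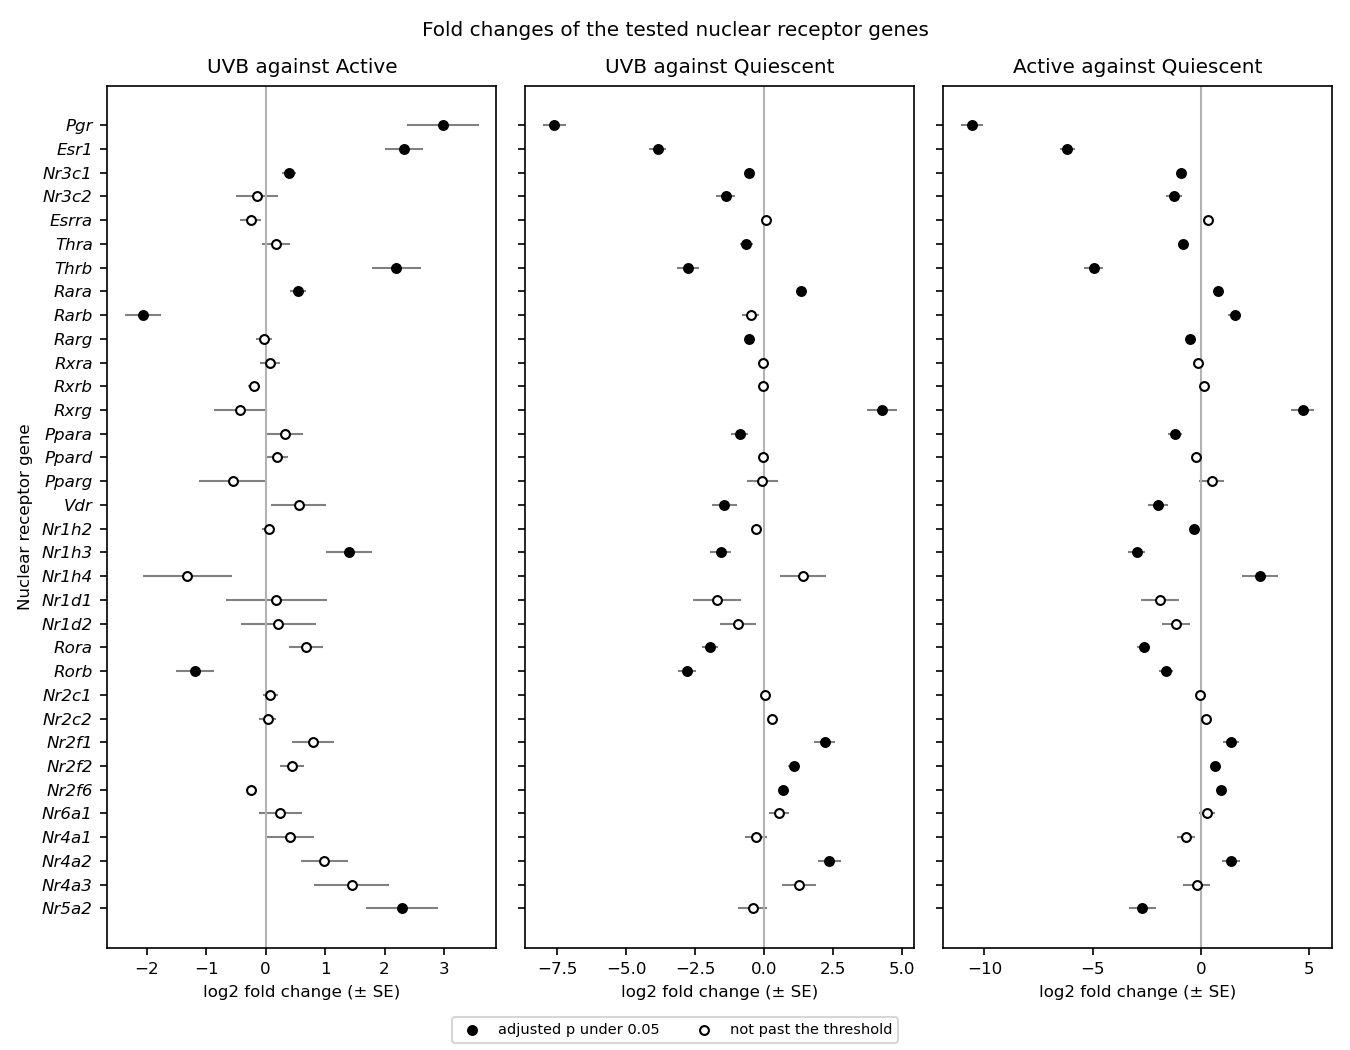
Log2 fold change with its standard error for each of the 34 tested nuclear receptor genes (rows) in the 3 comparisons (panels, each with its own scale), filled where the adjusted p was under 0.05. Pgr and Esr1 lie far to the left in both comparisons with Quiescent and Rxrg far to the right, and under scaling by library totals alone the signs turned for Nr3c1 and Thra in UVB against Quiescent, for Nr1h2 in Active against Quiescent and for Rarg in both.

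Among the steroid receptors, the genes of the progesterone and oestrogen receptors had by far their highest levels in the Quiescent libraries, and those of both corticosteroid receptors were lower outside them by smaller factors. Pgr, the progesterone receptor, at chr9:8899833-8968611 on the plus strand of GRCm38, had 0.662, 0.719 and 1.25 CPM in UVB libraries, 0.0623, 0.254 and 0 CPM in Active and 153, 156 and 205 CPM in Quiescent. No library of a group reached the range of another. Its log2 fold change was −7.61 ± 0.42 (SE) in UVB against Quiescent (adjusted p = 6.93e-06), −10.58 ± 0.52 in Active against Quiescent (adjusted p = 2.59e-06) and 2.98 ± 0.61 in UVB against Active (adjusted p = 0.0106). The Active values rest on 9 fragments, 7 of them in replicate 2, and without that library the log2 fold change was −12.06 in Active against Quiescent and 4.46 in UVB against Active. On log2(FPKM + 1), a scale that flattens low levels, the difference between UVB and Active was 0.146 and did not pass (limma, adjusted p = 0.458).

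Esr1, the oestrogen receptor alpha, at chr10:4611593-5005614 on the plus strand, stood at 5.04, 4.59 and 8.41 CPM in UVB libraries, at 1.43, 1.34 and 0.777 CPM in Active and at 67.4, 99.5 and 93.8 CPM in Quiescent. The 3 groups did not overlap. Its log2 fold change was −3.85 ± 0.30 in UVB against Quiescent (edgeR, adjusted p = 3.52e-05), −6.18 ± 0.35 in Active against Quiescent (adjusted p = 4.55e-06) and 2.33 ± 0.31 in UVB against Active (adjusted p = 0.00213), and it kept these calls under every alternative run. Esr2, the oestrogen receptor beta, had 1 fragment in 1 Active library and none elsewhere. A count of 0 over the group allows up to 0.0331 CPM in UVB and 0.0506 CPM in Quiescent, covering counting error only.

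Nr3c1, the glucocorticoid receptor, was the most abundant steroid receptor gene per length in all groups, at 25.6 FPKM in UVB, 19.7 in Active and 37.6 in Quiescent. It had 149, 170 and 177 CPM in UVB libraries, 119, 128 and 130 CPM in Active and 240, 267 and 213 CPM in Quiescent, without overlap between groups. It fell by 0.931 on the log2 scale in Active against Quiescent (edgeR, adjusted p = 0.000183) and by 0.537 in UVB against Quiescent (adjusted p = 0.00507), although under scaling by library totals alone these values were −0.188 and 0.18 and did not pass. In UVB against Active it rose by 0.394 on the log2 scale (adjusted p = 0.0397). That call was lost in 10 of 18 alternatives, among them leaving out any UVB or Active library or Quiescent replicate 1, with log2 fold changes of 0.341 to 0.463. Nr3c2, the mineralocorticoid receptor, had 1.92, 1.51 and 3.34 CPM in UVB libraries, 2.77, 1.81 and 2.9 CPM in Active and 7.16, 5.48 and 5.02 CPM in Quiescent. All Quiescent libraries stood above the others, while UVB and Active overlapped. It fell by 1.38 on the log2 scale in UVB against Quiescent (adjusted p = 0.0109) and by 1.24 in Active against Quiescent (adjusted p = 0.0144). The second of these did not pass without Active replicate 2 (−1.05, adjusted p = 0.0561), and neither passed under library totals alone, at −0.668 and −0.496.

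**Figure D3:**
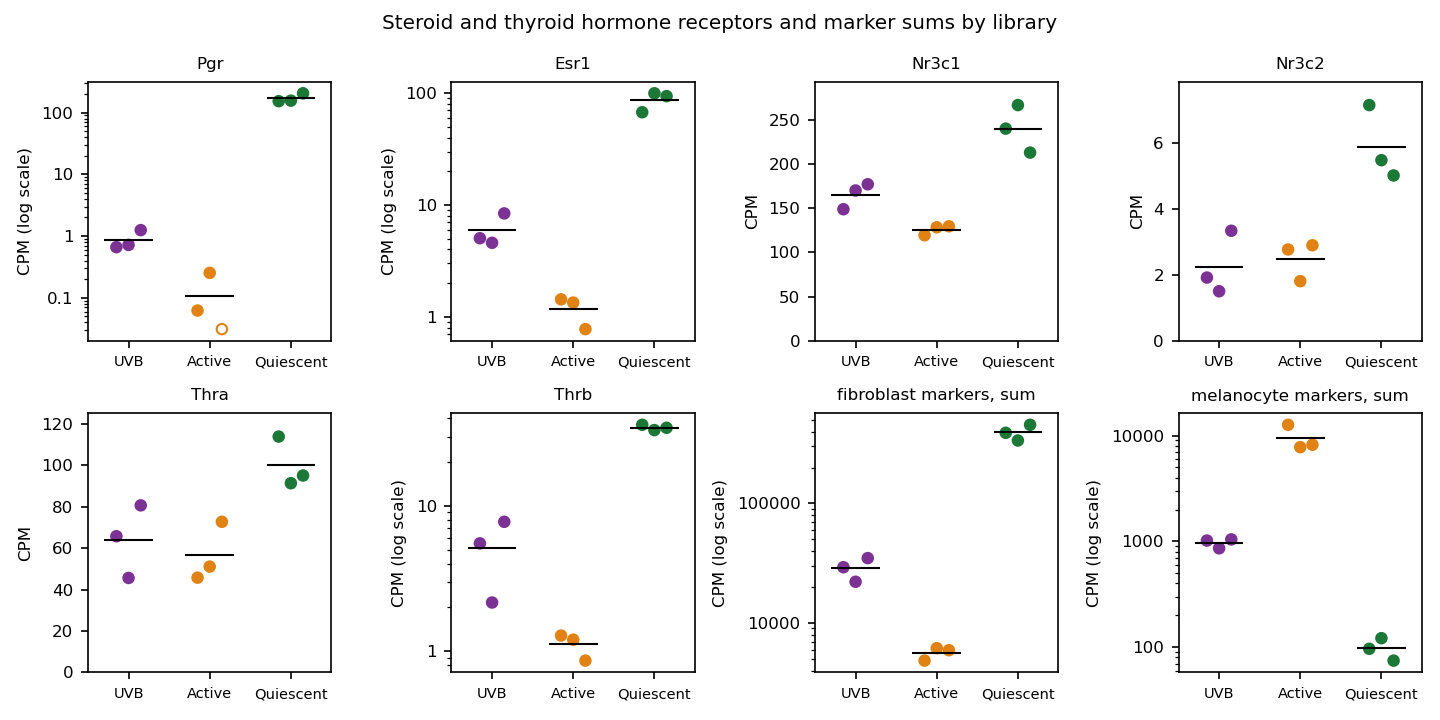
CPM in each library (points) and group mean (line) of the steroid and thyroid hormone receptor genes and of the summed dermal fibroblast and melanocyte lineage markers, on log or linear axes as labelled, with an open circle for 0 fragments drawn at the lower edge. Pgr, Esr1, Thrb and the fibroblast marker sum share the order Quiescent, UVB, Active from high to low, and the melanocyte marker sum has the order Active, UVB, Quiescent, while Nr3c1 and Thra in UVB against Quiescent turn sign under scaling by library totals alone.

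Genes that these receptors are known to control were counted beside them. Of 12 tested glucocorticoid targets, 1 was higher and 8 lower in UVB against Quiescent, none was higher and 8 were lower in Active against Quiescent, and 2 were higher and none lower in UVB against Active. Among all genes tested, 25.8%, 29.1% and 14.8% were higher and 23.2%, 29.2% and 9.19% lower in these comparisons, in that order. In UVB against Quiescent 2 of the 12 passed under library totals alone, and 5 without UVB replicate 1 or Quiescent replicate 3. Under library totals alone, 8746 of all 15078 genes tested were higher and 1246 lower in that comparison. In the comparison of UVB with Active 4 passed without UVB replicate 2 and 1 without UVB replicate 1 or 3 or Active replicate 1 or 2. Their median log2 fold change was −1.21, −2.09 and 0.64 in the same order, beside 0.021, 0.007 and 0.014 over all genes. Errfi1, a feedback inhibitor of the EGF receptor, had 116, 55.4 and 209 CPM in UVB libraries, 46.9, 30.6 and 47.8 CPM in Active and 707, 569 and 1535 CPM in Quiescent. It fell by 2.89 in UVB against Quiescent (edgeR, adjusted p = 0.00231) and by 4.49 in Active against Quiescent (adjusted p = 0.000203) on the log2 scale. Fkbp5, a chaperone partner of steroid receptors and a widely used glucocorticoid target, went the other way: it had 77.8, 66.3 and 93.1 CPM in UVB libraries, 49.7, 51.7 and 57.5 CPM in Active and 40, 48.2 and 48 CPM in Quiescent, and rose by 0.801 in UVB against Quiescent (adjusted p = 0.00183). Many of these genes also respond to other signals, and the part of any receptor in their levels was not tested.

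The 12 tested oestrogen and progesterone targets were split. In UVB against Quiescent 4 were higher and 3 lower, in Active against Quiescent 3 were higher and 3 lower, and in UVB against Active 4 were higher and 1 lower, with 3 in all without UVB replicate 1 or Active replicate 1 or 2. Beside them, 49.0%, 58.3% and 24.0% of all genes tested passed in these comparisons, in that order. Igf1, insulin-like growth factor 1, had 111, 127 and 266 CPM in UVB libraries, 36.6, 20.1 and 50.6 CPM in Active and 480, 537 and 959 CPM in Quiescent, the order of Esr1 and also of the fibroblast markers. It fell by 1.97 on the log2 scale in UVB against Quiescent (edgeR, adjusted p = 0.00665). Fkbp4, a co-chaperone needed for progesterone receptor function in mice, had 86.2, 115 and 100 CPM in UVB libraries, 169, 163 and 146 CPM in Active and 50.3, 42.5 and 52.6 CPM in Quiescent, the reverse of the order of Pgr at both ends. It rose by 1.05 in UVB against Quiescent (adjusted p = 0.000342) and by 1.71 in Active against Quiescent (adjusted p = 1.76e-05).

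Of the oestrogen-related receptors, orphans that act on energy metabolism, Esrra lay between 16.6 and 28.3 CPM in every library and passed in no comparison over all libraries with TMM scaling. Without Quiescent replicate 1 it was higher in Active than in Quiescent (0.487, adjusted p = 0.047), and under library totals alone it was higher in UVB (0.798) and in Active (1.08) than in Quiescent. Its mean was 22.4 ± 3.26 CPM in UVB, 26.7 ± 1.48 CPM in Active and 21.1 ± 4.33 CPM in Quiescent (SD, n = 3 each). Its partner paralogs Esrrb and Esrrg were among the 12 untested genes, with at most 5 fragments in any library.

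The thyroid hormone receptor genes were both lowest in Active libraries in mean level, and Thrb differed far more than Thra. Thrb, the beta receptor, at chr14:17660261-18038090 on the plus strand of GRCm38, had 5.52, 2.16 and 7.76 CPM in UVB libraries, 1.28, 1.2 and 0.858 CPM in Active and 36.2, 33.3 and 34.5 CPM in Quiescent, with no overlap. Its log2 fold change was −2.75 ± 0.40 in UVB against Quiescent (edgeR, adjusted p = 0.000614), −4.95 ± 0.45 in Active against Quiescent (adjusted p = 3.16e-05) and 2.2 ± 0.41 in UVB against Active (adjusted p = 0.00779), and it kept these calls under every alternative run. Thra, the alpha receptor, had 65.7, 45.6 and 80.6 CPM in UVB libraries, 45.7, 51.1 and 72.7 CPM in Active and 114, 91.3 and 95 CPM in Quiescent. Quiescent stood above both other groups, which overlapped. Thra fell by 0.825 in Active against Quiescent (adjusted p = 0.0145) and by 0.646 in UVB against Quiescent (adjusted p = 0.0467) on the log2 scale, with 0.074 in the second comparison under library totals alone. The call in UVB against Quiescent was lost in 9 of 18 alternatives, among them leaving out any library except UVB replicate 3 or Active replicate 3, at −0.45 to −0.708. The call in Active against Quiescent was lost without Active replicate 1 (−0.69, adjusted p = 0.0562) or Active replicate 2 (−0.753, adjusted p = 0.0551).

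Genes of thyroid hormone supply differed beside the receptors. Crym, a cytosolic protein that binds thyroid hormone, had 256, 253 and 122 CPM in UVB libraries, 285, 324 and 286 CPM in Active and 0.274, 0.477 and 0.354 CPM in Quiescent. It was higher by 9.18 ± 0.40 in UVB against Quiescent (edgeR, adjusted p = 2.47e-06) and by 9.68 ± 0.41 in Active against Quiescent (adjusted p = 1.64e-06) on the log2 scale. Slc16a10, a transporter of aromatic amino acids and thyroid hormone, ran the other way, with 4.03, 3.53 and 6.65 CPM in UVB libraries, 2.31, 1.67 and 2.29 CPM in Active and 22.6, 39.9 and 29.1 CPM in Quiescent. Its log2 fold change was −2.69 in UVB against Quiescent (adjusted p = 0.000192) and −3.87 in Active against Quiescent (adjusted p = 2.26e-05). Slc16a10 had the order of Thrb and of the fibroblast markers. Of the 17 tested genes of steroid, thyroid hormone and vitamin D handling, 4 were higher and 1 lower in UVB against Quiescent, 5 higher and 1 lower in Active against Quiescent, and 2 higher and 1 lower in UVB against Active, where 1 passed without any single Active library. The shares of all genes tested that passed in these comparisons were 49.0%, 58.3% and 24.0%, in that order. Cyp11a1, which makes the first step from cholesterol towards steroid hormones, had 2.17, 1.54 and 4.05 CPM in UVB libraries, 0.218, 0.435 and 0.327 CPM in Active and 0.704, 0.417 and 0.295 CPM in Quiescent. It was higher in UVB than in Active by 2.98 (adjusted p = 0.00612) and than in Quiescent by 2.41 (adjusted p = 0.00462) on the log2 scale. Mast cell markers, summed over 8 genes, were also highest in UVB, at 58.9 to 119 CPM, beside 5.44 to 10.4 CPM in Active and 2.89 to 9.62 CPM in Quiescent. So were T cell markers, summed over 7 genes, at 14.4 to 22.5, 2.68 to 4.11 and 1.71 to 5.36 CPM in the same order. The part of either cell type in the level of Cyp11a1 was not tested.

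The retinoid receptors are given with the promoter of Rarb, since it holds the textbook direct repeat through which retinoic acid receptors act on their own gene. The window runs from 250 bases before to 50 after the RefSeq start of Rarb, at chr14:16575427-16575726 on the minus strand of GRCm38.p6, and capitals mark the repeat, the run GTTCA given again in the same direction after 6 bases, which begins 52 bases before the start.
Rarb: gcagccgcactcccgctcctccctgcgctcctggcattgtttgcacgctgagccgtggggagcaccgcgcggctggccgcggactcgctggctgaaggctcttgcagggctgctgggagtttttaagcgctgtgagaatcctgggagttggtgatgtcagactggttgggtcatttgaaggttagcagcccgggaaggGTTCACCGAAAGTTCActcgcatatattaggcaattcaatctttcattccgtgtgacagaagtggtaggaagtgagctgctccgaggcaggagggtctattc
This spaced motif was searched on both strands after the sequence had been seen. It was found in 1 of 63 windows of 42 receptor genes that the RefSeq table held, and in 0.0761% of 32851 promoter windows of the same length. The match is a description of the letters only.

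Among the retinoic acid receptors, Rara was highest in UVB, Rarb highest in Active and Rarg highest in Quiescent by group mean. Rarb had 3.25, 2.5 and 2.77 CPM in UVB libraries, 13, 12.4 and 10.1 CPM in Active and 4.77, 4.89 and 2.24 CPM in Quiescent. Every Active library stood above every other library, while UVB and Quiescent overlapped. Its log2 fold change was −2.06 ± 0.30 in UVB against Active (edgeR, adjusted p = 0.00316) and 1.57 ± 0.30 in Active against Quiescent (adjusted p = 0.00192), and these calls held under every alternative run. In UVB against Quiescent Rarb did not pass (−0.49 ± 0.30, adjusted p = 0.211), although it did without Quiescent replicate 3 (−0.763, adjusted p = 0.0189). The annotated Rarb gene overlaps Top2b, a DNA topoisomerase, by 4624 bases on the opposite strand, and the strand setting used in counting is not stated. Top2b had 290, 307 and 317 CPM in UVB libraries, 231, 291 and 275 CPM in Active and 178, 178 and 262 CPM in Quiescent. Without the strand setting, the fragments of Rarb and Top2b in the overlap cannot be told apart.

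Rara, the alpha receptor, had 64.2, 64.9 and 59.3 CPM in UVB libraries, 44.5, 36.7 and 48.4 CPM in Active and 26.8, 26.2 and 21.4 CPM in Quiescent, without overlap. It rose by 1.34 ± 0.14 on the log2 scale in UVB against Quiescent (edgeR, adjusted p = 0.000103) and by 0.80 ± 0.13 in Active against Quiescent (adjusted p = 0.00093). In UVB against Active it rose by 0.54 ± 0.13 (adjusted p = 0.0211), a call lost without UVB replicate 1 or 2 or Active replicate 1 or 2, where the values were 0.432 to 0.558. Rarg, the receptor that predominates in epidermis, had 103, 96.8 and 88.6 CPM in UVB libraries, 99.3, 92 and 103 CPM in Active and 161, 147 and 111 CPM in Quiescent. UVB and Active overlapped and Quiescent stood above both, and Rarg fell by 0.539 in UVB against Quiescent (adjusted p = 0.0125) and by 0.512 in Active against Quiescent (adjusted p = 0.0127) on the log2 scale, with 0.174 and 0.227 under library totals alone. Without Active replicate 2 the second value did not pass (−0.464, adjusted p = 0.0523).

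The retinoid X receptors are the shared partners of the thyroid, retinoic acid, vitamin D and lipid receptors, and a single one of the 3 genes differed. Rxrg, at chr1:167598384-167639623 on the plus strand of GRCm38, had 88.6, 80.3 and 58.1 CPM in UVB libraries, 86.6, 97.8 and 120 CPM in Active and 5.67, 4.95 and 0.827 CPM in Quiescent. UVB and Active overlapped, and all their libraries stood above Quiescent. It rose by 4.29 ± 0.53 on the log2 scale in UVB against Quiescent (edgeR, adjusted p = 0.000274) and by 4.71 ± 0.54 in Active against Quiescent (adjusted p = 0.000102), and the calls held under every alternative run. Rxrg did not pass in UVB against Active (−0.42 ± 0.45, adjusted p = 0.525), where 9 of 10 melanocyte markers were lower in UVB. Rxra, at a mean of 109 ± 13.8 CPM in UVB, 103 ± 7.34 in Active and 112 ± 23.5 in Quiescent, and Rxrb, at 37.2 ± 1.91, 42.6 ± 2.21 and 38.5 ± 3.64 CPM (SD, n = 3 each), passed in no comparison. Scaled by library totals alone, both were higher in UVB and in Active than in Quiescent, by 0.628 to 0.892 on the log2 scale, which is close to the shift of the median gene.

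**Figure D4:**
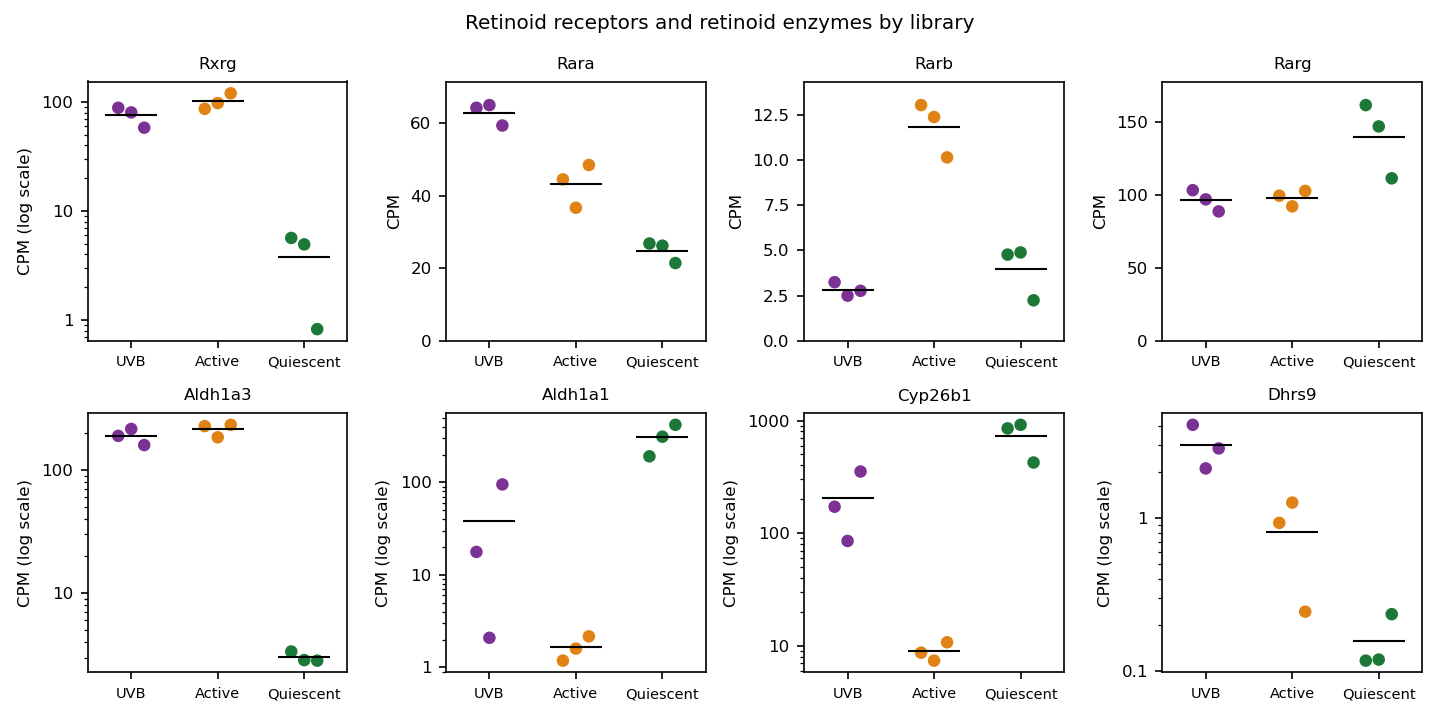
CPM in each library (points) and group mean (line) of retinoid receptor genes in the upper row and retinoid enzyme genes in the lower row, on log or linear axes as labelled. Rxrg and Aldh1a3 are high in both UVB and Active, Rarb is high in Active and Rara in UVB, Aldh1a1 and Cyp26b1 have their lowest means in Active, Dhrs9 is highest in UVB, and the lower level of Rarg in UVB and Active turns sign under scaling by library totals alone.

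Enzymes of the same step of retinoic acid supply changed in opposite directions. Of 15 tested genes of retinoid handling, 3 were higher and 3 lower in UVB against Quiescent, 4 higher and 7 lower in Active against Quiescent, and 5 higher and none lower in UVB against Active, where 3 passed without UVB replicate 1, 1 without Active replicate 1 and 2 without Active replicate 2. Over all genes tested, 49.0%, 58.3% and 24.0% passed in these comparisons, in that order. Aldh1a3, a retinaldehyde dehydrogenase that makes retinoic acid, had 189, 215 and 159 CPM in UVB libraries, 227, 184 and 232 CPM in Active and 3.36, 2.86 and 2.83 CPM in Quiescent. It rose by 5.95 ± 0.18 in UVB against Quiescent (edgeR, adjusted p = 5.51e-07) and by 6.14 ± 0.18 in Active against Quiescent (adjusted p = 4.51e-07) on the log2 scale. Aldh1a1, which catalyses the same step, had 17.7, 2.09 and 95 CPM in UVB libraries, 1.18, 1.6 and 2.17 CPM in Active and 191, 312 and 419 CPM in Quiescent. It fell by 7.55 in Active against Quiescent (adjusted p = 0.00105). UVB replicate 2 lay within the Active range, and the log2 fold changes of 4.55 in UVB against Active (adjusted p = 0.0241) and −3.01 in UVB against Quiescent (adjusted p = 0.0373) were 2.6 (adjusted p = 0.0531) and −4.95 without UVB replicate 3. The first was also lost without any single Active library, and the second without UVB replicate 1, Active replicate 1 or 2 or any single Quiescent library and under library totals alone. Cyp26b1, which degrades retinoic acid, had 172, 85.1 and 353 CPM in UVB libraries, 8.66, 7.36 and 10.7 CPM in Active and 852, 917 and 424 CPM in Quiescent. It rose by 4.51 in UVB against Active (adjusted p = 0.00143), and fell by 6.36 in Active against Quiescent (adjusted p = 3.83e-05) and by 1.85 in UVB against Quiescent (adjusted p = 0.0128), the UVB values being 3.85 and −2.51 without UVB replicate 3. The last call was lost under library totals alone (−1.15, adjusted p = 0.0652). Dhrs9, a retinol dehydrogenase, was scarce, with 4.1, 2.12 and 2.87 CPM in UVB libraries, 0.935, 1.27 and 0.245 CPM in Active and 0.117, 0.119 and 0.236 CPM in Quiescent, and it rose by 4.25 in UVB against Quiescent (adjusted p = 0.000988). Cyp26b1 and Aldh1a1 had, by group mean, the order of the fibroblast markers. Aldh1a3 was high in both groups in which the summed melanocyte markers were above Quiescent. Of these 10 markers, 10 were higher in Active than in Quiescent and 8 in UVB than in Quiescent. Mitf did not pass in UVB against Quiescent, with 20 to 38.1 CPM in UVB and 47.3 to 64 CPM in Quiescent. The part of fibroblasts and melanocytes in these levels was not tested.

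Of 7 tested receptors for lipids, bile acids and vitamin D, none was higher and 3 lower in UVB against Quiescent, 1 was higher and 4 lower in Active against Quiescent, and 1 was higher and none lower in UVB against Active. Beside these counts, 49.0%, 58.3% and 24.0% of all genes tested passed, in the same order. Nr1h3, the liver X receptor alpha, which senses oxidised cholesterol and is abundant in macrophages, had 3.59, 3.49 and 8.95 CPM in UVB libraries, 1.75, 1.78 and 2.53 CPM in Active and 14.7, 14.1 and 18.7 CPM in Quiescent, without overlap. It fell by 2.97 in Active against Quiescent (edgeR, adjusted p = 0.00027) and by 1.57 in UVB against Quiescent (adjusted p = 0.00838) and rose by 1.41 in UVB against Active (adjusted p = 0.0306) on the log2 scale. Without UVB replicate 3 the values with UVB were −2.16 and 0.813, and the rise over Active no longer passed (adjusted p = 0.0541), nor did it without Active replicate 1 (1.3, adjusted p = 0.101) or 2 (1.32, adjusted p = 0.108). The fall in UVB against Quiescent did not pass under library totals alone (−0.835, adjusted p = 0.0708). Summed over 10 macrophage and dendritic markers, levels were 713, 729 and 1514 CPM in UVB libraries, 90.5, 99.5 and 36.1 CPM in Active and 299, 2202 and 170 CPM in Quiescent. Within UVB, replicate 3 was highest both for these markers and for Nr1h3. Within Quiescent, replicate 2 was highest for the markers and lowest for Nr1h3. Within Active, replicate 3 was lowest for the markers and highest for Nr1h3. The part of these cells in the level of Nr1h3 was not tested. Nr1h2, the liver X receptor beta, stood at 51.1 ± 2.41 CPM in UVB, 49.3 ± 4.43 in Active and 62 ± 6.17 in Quiescent (SD, n = 3 each). It fell by 0.332 in Active against Quiescent (adjusted p = 0.0273), with 0.414 under library totals alone, and the call was lost without Active replicate 2 (−0.253), Active replicate 3 (−0.347) or Quiescent replicate 1 (−0.248) and with no filter on low counts (−0.309). Nr1h2 did not pass in UVB against Quiescent (−0.28, adjusted p = 0.0588), but it was lower with median-of-ratios scaling, DESeq2, both limma fits and without Quiescent replicate 3, at −0.289 to −0.339 (adjusted p from 0.0399 to 0.0435), and higher under library totals alone (0.438, adjusted p = 0.0119).

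Vdr, the vitamin D receptor, which is needed for hair follicle cycling, had 15.7, 9.45 and 32.7 CPM in UVB libraries, 18.7, 12.2 and 8.34 CPM in Active and 46.4, 39.3 and 70.3 CPM in Quiescent. UVB and Active overlapped below Quiescent. It fell by 1.99 in Active against Quiescent (edgeR, adjusted p = 0.00624), which held under every alternative run, and by 1.43 in UVB against Quiescent (adjusted p = 0.0314) on the log2 scale. The second call was lost without UVB replicate 1 (−1.3) or 2 (−1.1) or Quiescent replicate 1 (−1.51) or 3 (−1.15) and under library totals alone (−0.691), and the value was −2.04 without UVB replicate 3. Nr1h4, the bile acid receptor, was low throughout, with 1.29, 1.54 and 0.0675 CPM in UVB libraries, 2.12, 2.87 and 2.25 CPM in Active and 0.469, 0.298 and 0.295 CPM in Quiescent. UVB replicate 3 had 2 fragments where the other UVB libraries had 41 and 45. It rose by 2.73 in Active against Quiescent (adjusted p = 0.0202), a call lost without Active replicate 2 (2.59, adjusted p = 0.053) or Quiescent replicate 2 (2.62, adjusted p = 0.0583) or 3 (2.62, adjusted p = 0.056). In UVB against Quiescent it did not pass (1.41, adjusted p = 0.189), and without UVB replicate 3 it did (1.96, adjusted p = 0.00363). In UVB against Active it was lower with limma on log2(FPKM + 1) alone of the alternatives (−0.611, adjusted p = 0.0444).

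The peroxisome proliferator-activated receptors sense fatty acids. Ppard, the most abundant of them per length, had a mean of 34 ± 4.74 CPM in UVB, 29.7 ± 4.49 in Active and 34.6 ± 7.38 in Quiescent and passed in no comparison. Ppara, which drives fatty acid oxidation, averaged 3.26 ± 0.782 CPM in UVB, 2.61 ± 0.579 in Active and 5.97 ± 1.65 in Quiescent (SD, n = 3 each). It fell by 1.19 in Active against Quiescent (edgeR, adjusted p = 0.0105), which did not pass under library totals alone (−0.433). In UVB against Quiescent it fell by 0.874 (adjusted p = 0.0452), a call lost in 12 of 18 alternatives. Among them were leaving out any library except Quiescent replicate 2, with values of −0.687 to −1, and library totals alone, with −0.14. Pparg, the regulator of fat cell formation, had 3.4, 2.71 and 13 CPM in UVB libraries, 13.7, 8.52 and 5.68 CPM in Active and 6.57, 6.02 and 7.21 CPM in Quiescent. UVB replicate 3 stood apart from the other UVB libraries, and Pparg passed in no comparison, though without that library it was lower in UVB than in Active (−1.61, adjusted p = 0.026) and than in Quiescent (−1.11, adjusted p = 0.038). Summed over 8 adipocyte markers, levels were 31.2 to 54.6 CPM in UVB, 27.7 to 36.8 CPM in Active and 41.5 to 71.1 CPM in Quiescent. Of these 8, only 2 had enough fragments to be tested. Pnpla2, at group means of 25.7 to 45.7 CPM, and Lipe, at 5.14 to 13.1 CPM, held most of each sum. Adipoq, Plin1, Lep, Cidec, Retn and Cfd had group means of at most 0.44 CPM. Over 9 sebaceous gland markers the sums were 37, 16.3 and 18.4 CPM in UVB libraries, 151, 65.2 and 44.6 CPM in Active and 46.9, 15.8 and 15.1 CPM in Quiescent, falling in the same order of libraries as Pparg within Active but not within UVB or Quiescent. The part of these cells in the level of Pparg was not tested.

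Of 18 tested targets of these lipid sensors, 4 were higher and 3 lower in UVB against Quiescent, 5 higher and 6 lower in Active against Quiescent, and 2 higher and 1 lower in UVB against Active, where 5 passed without UVB replicate 2. Among all genes tested, 49.0%, 58.3% and 24.0% passed in these comparisons, in that order. The targets that changed had different tasks. Lpl, a lipase that takes up fat from lipoproteins, had 89.6, 61.9 and 198 CPM in UVB libraries, 17.7, 15.4 and 11.9 CPM in Active and 425, 331 and 770 CPM in Quiescent, and fell by 5.08 in Active against Quiescent on the log2 scale (edgeR, adjusted p = 6.27e-05). In UVB it was higher than in Active by 2.96 (adjusted p = 0.00451) and lower than in Quiescent by 2.12 (a log2 fold change of −2.12, adjusted p = 0.00506), with 2.34 and −2.75 without UVB replicate 3. Fasn, the fatty acid synthase, had 243, 288 and 159 CPM in UVB libraries, 224, 208 and 281 CPM in Active and 139, 83.9 and 115 CPM in Quiescent, and rose by 1.03 in UVB against Quiescent (adjusted p = 0.00931) and by 1.08 in Active against Quiescent (adjusted p = 0.00584).

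The clock-linked receptors comprise the repressors Nr1d1 and Nr1d2, also called REV-ERB alpha and beta, and the ROR receptors, which compete with them for the same DNA element. That element has the core AGGTCA, and the Nr1d2 promoter holds 1 copy, shown here because the receptors of this family bind it. The window is chr14:18239057-18239356 on the minus strand of GRCm38.p6, from RefSeq, with the copy in capitals, 77 bases before the start.
Nr1d2: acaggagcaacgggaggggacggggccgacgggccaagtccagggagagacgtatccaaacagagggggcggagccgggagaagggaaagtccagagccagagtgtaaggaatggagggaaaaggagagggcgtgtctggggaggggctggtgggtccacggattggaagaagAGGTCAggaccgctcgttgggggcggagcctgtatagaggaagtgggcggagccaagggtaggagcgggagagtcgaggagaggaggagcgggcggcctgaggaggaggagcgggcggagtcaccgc
Searched on both strands, AGGTCA stood in windows of 11 of 42 receptor genes and in 16.3% of all 32851 windows. CACGTG, the E-box bound by the CLOCK and ARNTL proteins, was in no window of Nr1d1 or Nr1d2 and in 7.15% of all windows.

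Nr1d1 had 88.3, 78.3 and 28.9 CPM in UVB libraries, 41.1, 46 and 85.6 CPM in Active and 274, 348 and 17.4 CPM in Quiescent. Nr1d2 had 99.1, 118 and 55.1 CPM in UVB libraries, 73.4, 77.1 and 83.8 CPM in Active and 228, 265 and 28.7 CPM in Quiescent. For both genes, Quiescent replicates 1 and 2 were the highest of the 9 libraries and Quiescent replicate 3 was the lowest. Neither passed in a comparison over all libraries. Without Quiescent replicate 3, Nr1d1 was lower in UVB (−2.25, edgeR, adjusted p = 0.00679) and in Active (−2.43, adjusted p = 0.00345), and so was Nr1d2 (−1.44, adjusted p = 0.00415, and −1.65, adjusted p = 0.00146).

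Other clock genes set that library apart in the same way. Dbp, an output gene of the clock, had 13.7, 15 and 3.51 CPM in UVB libraries, 8.04, 9.5 and 9.32 CPM in Active and 96.9, 99 and 1.95 CPM in Quiescent. Arntl, a core activator that REV-ERB proteins repress, was opposite, with 25.9, 19.4 and 37.1 CPM in UVB libraries, 17.6, 15.1 and 23.2 CPM in Active and 18.7, 24.7 and 93.2 CPM in Quiescent. Clock, the partner of Arntl, had 184 CPM in Quiescent replicate 3 and 51.2 to 78.3 CPM in the other 8 libraries. UVB replicate 3 was likewise the lowest UVB library for Nr1d1, Nr1d2 and Dbp and the highest for Arntl and Clock. Times of collection are not given in the labels, and their part was not tested. Of 15 tested clock genes, none was higher and 2 lower in UVB against Quiescent, none was higher and 4 lower in Active against Quiescent, and 1, Npas2, was higher in UVB against Active, where none passed without UVB replicate 1 or Active replicate 1 or 2 and 2 without Quiescent replicate 3. Without Quiescent replicate 3, 8 passed in UVB against Quiescent and 9 in Active against Quiescent. Over all 9 libraries, 49.0% of all genes tested passed in UVB against Quiescent, 58.3% in Active against Quiescent and 24.0% in UVB against Active.

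**Figure D5:**
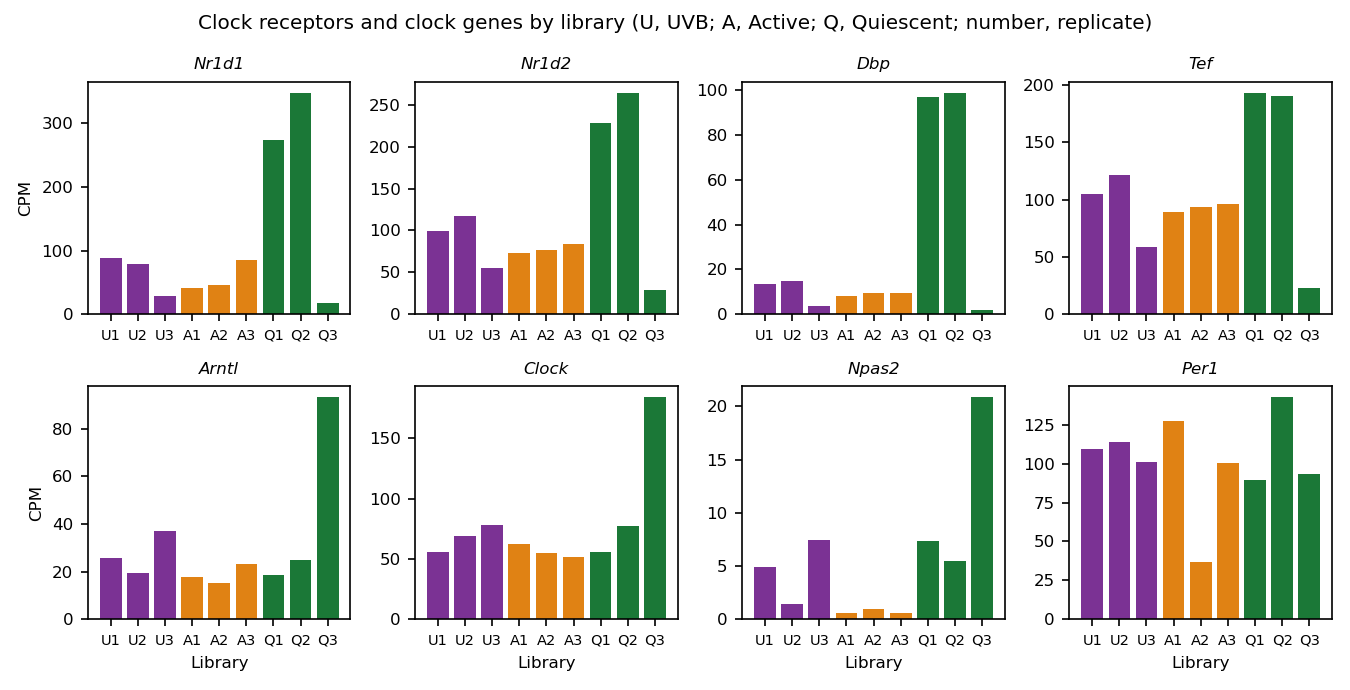
CPM in each of the 9 libraries (bars) of the clock receptor genes Nr1d1 and Nr1d2 and of 6 further clock genes. Quiescent replicate 3 (Q3) is lowest for Nr1d1, Nr1d2, Dbp and Tef and highest for Arntl, Clock and Npas2, and Per1 does not set it apart.

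Thra and Nr1d1 lie tail to tail on chromosome 11 and their annotated ends overlap by 1075 bases on opposite strands. Where Nr1d1 was at 17.4 CPM, in Quiescent replicate 3, Thra was at 95 CPM, between the 114 and 91.3 CPM of the other Quiescent libraries. In all, 13 of the 46 receptor genes overlap a gene on the opposite strand, taken over whole genes with their introns. Without the strand setting, fragments in such an overlap cannot be told apart from those of the partner. The partners of Esrrg, Nr3c2, Nr2e3 and Nr6a1 had 0 CPM in every library. Thra and Rara also lie on chromosome 11, 158.8 kb apart, and fell and rose in Active against Quiescent.

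Rora had 5.42, 4.11 and 7.12 CPM in UVB libraries, 3.87, 2.58 and 3.92 CPM in Active and 15.2, 23.1 and 26 CPM in Quiescent, without overlap. It fell by 1.95 ± 0.29 in UVB against Quiescent (edgeR, adjusted p = 0.000745) and by 2.63 ± 0.30 in Active against Quiescent (adjusted p = 0.000103) on the log2 scale, and both calls held under every alternative run. Rorb, best known from retina and brain, had 1.2, 0.754 and 0.911 CPM in UVB libraries, 2.68, 1.99 and 1.88 CPM in Active and 5.51, 5.48 and 8.98 CPM in Quiescent, again without overlap but with UVB lowest. It fell by 2.79 ± 0.33 in UVB against Quiescent (adjusted p = 0.000214), by 1.60 ± 0.31 in Active against Quiescent (adjusted p = 0.00207) and by 1.19 ± 0.32 in UVB against Active (adjusted p = 0.0276). The last call was lost without UVB replicate 2 (−1.05) or 3 (−1.16) or Active replicate 1 (−1.02) or 2 (−1.26) and with limma on log2 FPKM. Neither gene had the low level of Nr1d1 in Quiescent replicate 3.

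Of the orphan receptors of the NR2 group, the COUP transcription factors, which direct cell fate in the neural crest, vessels and mesenchyme, were higher outside Quiescent. Nr2f1 had 6.93, 6.47 and 10.4 CPM in UVB libraries, 3.4, 4.24 and 6.09 CPM in Active and 2.42, 1.61 and 1.06 CPM in Quiescent, with no overlap. It rose by 2.21 ± 0.38 in UVB against Quiescent (edgeR, adjusted p = 0.00146) and by 1.41 ± 0.37 in Active against Quiescent (adjusted p = 0.00987) on the log2 scale. Its gene overlaps A830082K12Rik by 1741 bases on the opposite strand, and that gene had 2.27, 2.12 and 3.98 CPM in UVB libraries, 0.654, 1.89 and 1.88 CPM in Active and 0.587, 0.715 and 0.295 CPM in Quiescent. The partner moved with Nr2f1, and without the strand setting their fragments in the overlap cannot be told apart. Nr2f2 had 35.5, 44.9 and 35.7 CPM in UVB libraries, 22.3, 30.2 and 33.2 CPM in Active and 23.3, 15.7 and 15.9 CPM in Quiescent. UVB stood above both other groups and Active overlapped Quiescent. It rose by 1.08 ± 0.21 in UVB against Quiescent (adjusted p = 0.00295) and by 0.64 ± 0.21 in Active against Quiescent (adjusted p = 0.0267), the second call being lost without Active replicate 2 or 3 or Quiescent replicate 2 or 3, at 0.535 to 0.601.

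Nr2f6, a COUP-related gene that restrains gene activity in immune cells, varied little within groups. It had 46.6, 46.3 and 44 CPM in UVB libraries, 53.4, 52 and 56 CPM in Active and 30.9, 26.5 and 28.4 CPM in Quiescent, without overlap. It rose by 0.675 ± 0.093 in UVB against Quiescent (edgeR, adjusted p = 0.000492) and by 0.913 ± 0.093 in Active against Quiescent (adjusted p = 5.79e-05) on the log2 scale, and did not pass in UVB against Active (−0.24, adjusted p = 0.0929). Its gene overlaps Ocel1 by 5239 bases on the opposite strand, and Ocel1 had 2.02 to 4 CPM in UVB, 9.61 to 12.9 CPM in Active and 4.11 to 5.18 CPM in Quiescent. The testicular receptors Nr2c1 and Nr2c2, which repress in many tissues, and the germ cell nuclear factor Nr6a1 passed in no comparison. Nr2c1 averaged 25.7 ± 1.19 CPM in UVB, 24.4 ± 3.19 in Active and 25 ± 1.72 in Quiescent, Nr2c2 averaged 37.1 ± 4.43, 36.2 ± 1.94 and 30.6 ± 5.06 CPM, and Nr6a1 averaged 5.67 ± 1.2, 4.79 ± 1.74 and 3.91 ± 1.52 CPM in the same order (SD, n = 3 each). Without Quiescent replicate 3, Nr2c2 was higher in UVB (0.423, adjusted p = 0.0274) and in Active (0.388, adjusted p = 0.0311) than in Quiescent.

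The NR4A receptors are immediate early genes, switched on within the hour by growth factors, cyclic AMP and stress, and in pigment cells they are known to be induced by melanocortin signalling. Their promoters are shown since the core of the cyclic AMP response element, TGACG or its complement CGTCA, recurs in each of the 3. Capitals mark each copy in the RefSeq windows of GRCm38.p6, which are chr15:101266596-101266895 on the plus strand for Nr4a1, chr2:57123954-57124253 on the minus strand for Nr4a2 and chr4:48045055-48045354 on the plus strand for Nr4a3.
Nr4a1: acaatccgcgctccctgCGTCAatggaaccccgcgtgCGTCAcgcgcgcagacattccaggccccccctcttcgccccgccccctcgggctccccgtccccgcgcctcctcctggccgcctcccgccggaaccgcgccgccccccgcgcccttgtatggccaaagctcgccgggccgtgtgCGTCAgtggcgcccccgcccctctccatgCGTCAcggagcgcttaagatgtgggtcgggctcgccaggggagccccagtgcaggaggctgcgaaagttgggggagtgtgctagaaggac
Nr4a2: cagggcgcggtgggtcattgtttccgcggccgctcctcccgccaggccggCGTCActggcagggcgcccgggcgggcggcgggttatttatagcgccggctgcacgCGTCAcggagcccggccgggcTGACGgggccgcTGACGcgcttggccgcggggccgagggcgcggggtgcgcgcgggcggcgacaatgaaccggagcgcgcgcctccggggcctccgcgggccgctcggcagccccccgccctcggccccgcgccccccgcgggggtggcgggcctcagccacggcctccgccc
Nr4a3: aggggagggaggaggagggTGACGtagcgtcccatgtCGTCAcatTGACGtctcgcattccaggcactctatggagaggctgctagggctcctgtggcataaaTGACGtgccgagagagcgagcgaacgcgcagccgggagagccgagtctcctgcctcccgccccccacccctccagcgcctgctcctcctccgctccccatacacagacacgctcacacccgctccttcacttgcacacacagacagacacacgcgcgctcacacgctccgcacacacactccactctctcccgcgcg
Each window holds 4 copies, and at least 1 stood in windows of 15 of 42 receptor genes and in 20.8% of all 32851 windows. The whole palindrome TGACGTCA, which contains the core, is in none of the 3 and in 1.79% of all windows. The shorter core was searched, on both strands, after the sequences had been seen.

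Nr4a2 differed between groups and its relatives did not pass. It had 115, 88.1 and 48.7 CPM in UVB libraries, 41.1, 26.3 and 59.6 CPM in Active and 10.4, 22.3 and 16 CPM in Quiescent. UVB and Active overlapped, and both stood above Quiescent. Nr4a2 rose by 2.38 ± 0.42 in UVB against Quiescent (edgeR, adjusted p = 0.00185), which held under every alternative run, and by 1.39 ± 0.41 in Active against Quiescent (adjusted p = 0.0174) on the log2 scale. The second call was lost without Active replicate 3 (1.08, adjusted p = 0.0614) or Quiescent replicate 1 (1.15, adjusted p = 0.0575). In UVB against Active its value was 0.99 ± 0.40 (adjusted p = 0.105).

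Nr4a1, the most abundant receptor gene per length, had 580, 390 and 419 CPM in UVB libraries, 302, 230 and 511 CPM in Active and 428, 912 and 348 CPM in Quiescent. All groups overlapped. Nr4a3 had 51.4, 28.5 and 15.5 CPM in UVB libraries, 14.2, 5.84 and 14.9 CPM in Active and 6.53, 25.6 and 7.74 CPM in Quiescent. Its UVB libraries stood just above the Active ones (1.45 ± 0.63, edgeR, adjusted p = 0.127) and overlapped Quiescent (1.27 ± 0.63, adjusted p = 0.125), where replicate 2, also the highest for Nr4a1 and Nr4a2, stood apart. Without that library Nr4a3 was higher in UVB than in Quiescent (2.16, adjusted p = 0.0171).

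The remaining receptor genes were at the edge of detection. Nr5a2, the liver receptor homologue, had at most 34 fragments in a library and a mean of 0.769 ± 0.345 CPM in UVB, 0.15 ± 0.107 CPM in Active and 1.01 ± 0.218 CPM in Quiescent (SD, n = 3 each). It fell by 2.70 ± 0.61 in Active against Quiescent (edgeR, adjusted p = 0.00454) and rose by 2.30 ± 0.60 in UVB against Active (adjusted p = 0.026) on the log2 scale. The rise was lost without UVB replicate 3 (1.89) or Active replicate 1 (2.31) or 3 (1.85). The 12 untested genes were Esr2, Esrrb, Esrrg, the xenobiotic receptors Nr1i2 and Nr1i3, the neural and photoreceptor genes Nr2e1 and Nr2e3, the steroidogenic factor Nr5a1, the corepressor-like Nr0b1 and Nr0b2, and the liver factors Hnf4a and Hnf4g. None had more than 5 fragments in a library. Where a gene had 0 fragments over a group, that allows up to 0.0331 CPM in UVB, 0.0357 CPM in Active or 0.0506 CPM in Quiescent, so expression below those levels was not detectable at this depth.

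Coregulators, which receptors recruit to DNA, were also counted. Of 22 tested, 4 were higher and 3 lower in UVB against Quiescent, 1 was higher and 6 lower in Active against Quiescent, and 8 were higher and 1 lower in UVB against Active, with median sizes of log2 fold change of 0.38, 0.28 and 0.43. Over all genes tested, 49.0%, 58.3% and 24.0% passed, and the median sizes were 0.591, 0.727 and 0.354, in the same order. Scaled by library totals alone, 17 coregulators passed in UVB against Quiescent and 18 in Active against Quiescent. Of all 15078 genes tested, 8746 were then higher and 1246 lower in the first comparison, and 8651 and 2206 in the second. In UVB against Active the number of coregulators was 1 to 10 when single libraries were left out. It was 1 without UVB replicate 1 or Active replicate 1 or 2, and 3 without UVB replicate 2 or Active replicate 3. Ncoa7, an oestrogen receptor coactivator, had 20.4, 20.9 and 27.8 CPM in UVB libraries, 10.1, 10.3 and 11.9 CPM in Active and 90.8, 69.4 and 191 CPM in Quiescent. It fell by 2.35 in UVB against Quiescent (edgeR, adjusted p = 0.000702) and by 3.45 in Active against Quiescent (adjusted p = 7.01e-05) on the log2 scale. Ppargc1a, a coactivator of PPAR gamma and of mitochondrial genes, had 1.26, 0.925 and 1.82 CPM in UVB libraries, 10.7, 6.89 and 5.64 CPM in Active and 2.23, 1.55 and 1.71 CPM in Quiescent, so that every Active library stood above all others. It fell by 2.53 ± 0.36 in UVB against Active (adjusted p = 0.00265) and rose by 2.07 ± 0.35 in Active against Quiescent (adjusted p = 0.00103), the pattern that Rarb had among the receptors.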

How the data were processed

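RNA was measured in 9 libraries in 3 groups of 3, UVB, Active and Quiescent, grouped and numbered after the labels. Per the labels' protocols, poly(A) RNA from sorted cells was made into directional libraries. The submitters' processing notes name cutadapt 1.8, TopHat2 2.0.13, Cuffdiff 2.2.1 and genome build mm10. Their settings, the strand rule and the annotation are not stated. The deposited table lists, per the file headers, the authors' estimated counts of fragments per gene before scaling and the authors' FPKM values after their own scaling. No receptor gene had a failed or non-whole value.

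Rounded counts went into the quasi-likelihood F test of edgeR 4.0.16 (R 4.3.3) with TMM factors and 1 model for the 9 libraries. Low genes were left out by filterByExpr, 8283 in number, which left 15078. Adjusted p-values are two-sided Benjamini-Hochberg values over all genes tested, with a threshold of 0.05. The standard error (SE) is the log2 fold change divided by the square root of F, in size. Replicates varied by a biological coefficient of variation of 0.28. The TMM factors ran from 1.165 to 1.187 in UVB, from 1.163 to 1.225 in Active and from 0.66 to 0.748 in Quiescent. CPM values were computed from counts and scaled totals. A count of 0 was given a limit of 3 fragments over a group, for counting error only, since copies made by PCR are not independent molecules. The tests were tried on simulated counts.

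Gene positions came from a GENCODE annotation of GRCm38, the assembly behind mm10, and promoter windows from RefSeq. Older symbols Mll2, Bcmo1, Gm129 and Emr1 were used for 4 listed genes, and 2 listed genes were not matched. All receptor genes were accounted for, those past the threshold with a mean of at least 1 CPM in a group by library. From the other lists, genes of small adjusted p were named, and those of ligand supply and breakdown that passed. The members and lists were chosen with earlier results of these data known. Any further genes, such as overlapping ones and single clock genes, were named after their values were seen. Alternatives were other scaling, DESeq2 1.42.0, limma 3.58.1 on log2 FPKM, other filters, a replicate block, only the groups compared and leaving out each library.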

Additional observations from a re-analysis of the deposited data

How the results depend on the processing

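Of the called log2 fold changes of receptor genes, 13 of 22 in Active against Quiescent, 11 of 18 in UVB against Quiescent and 3 of 9 in UVB against Active kept direction and call in every alternative. Under library totals alone the sign turned for Nr3c1 (0.18), Thra (0.074) and Rarg (0.174) in UVB against Quiescent and for Rarg (0.227) and Nr1h2 (0.414) in Active against Quiescent. The share of all called genes that were higher was then 87.5% in UVB against Quiescent and 79.7% in Active against Quiescent, against 52.7% and 50% with TMM factors. Receptor genes higher and lower then numbered 16 and 5 in UVB against Quiescent and 16 and 8 in Active against Quiescent. Beside them, 8746 of all 15078 genes tested were higher and 1246 lower in the first comparison, and 8651 and 2206 in the second. Calls among coregulators then numbered 17 and 18 in these comparisons and among steroid, thyroid and vitamin D handling genes 11 and 10, and glucocorticoid targets called in UVB against Quiescent numbered 2. The cause was not tested.

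In UVB against Active, limma on log2(FPKM + 1) gave 4 receptor genes higher, 5 coregulators and 0 clock genes, and limma on log2(FPKM + 0.1) gave 1 receptor gene lower. DESeq2 gave 5 glucocorticoid targets and 2 clock genes, fitting only the 2 groups compared gave 2 clock genes, and the filter of 50 counts gave 1 steroid, thyroid and vitamin D handling gene. Leaving out single libraries there gave 3 to 7 receptor genes higher and 1 to 2 lower, 1 to 10 coregulators, 1 to 6 retinoid genes, 1 to 4 steroid, thyroid and vitamin D genes, 1 to 4 glucocorticoid targets, 3 to 5 oestrogen and progesterone targets, 2 to 5 lipid sensor targets and 0 to 2 clock genes. In UVB against Quiescent it gave 5 to 10 glucocorticoid targets and 2 to 8 clock genes, and in Active against Quiescent 3 to 9 clock genes. Where a group was left with 2 libraries, the fit pooled the spread over groups.

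The labels do not say whether replicate numbers pair libraries, and correlations across genes of deviations from group means do not settle it. Same-numbered libraries correlated at −0.171 to 0.231 and libraries of different number at −0.209 to 0.26. Between Active and Quiescent the same-numbered pairs stood at 0.126, 0.065 and 0.231, and the others at −0.209 to 0.12. With a replicate block, the coregulators called in UVB against Active numbered 3, and the calls of Nr3c1 (adjusted p = 0.0652) and Nr5a2 (0.0618) in UVB against Active and of Nr2f2 in Active against Quiescent (0.0588) were lost.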
